A study of Mus musculus with 36 samples.

Results

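Jam2, Dpp4 and Pecam1, genes of proteins that sit on the surface of naive mouse embryonic stem cells (mESCs) and whose RNA is lost when these cells differentiate, were followed through the differentiation of Xmas mESCs. They are 3 of the 25965 genes of the deposited table, and were found there by symbol. They were selected on their levels by day in these same libraries, being genes whose RNA fell, so each fall is given as a description with no test, while differences between labels and between lines, which the choice did not use, were tested. All 3 genes passed the filter on low values.

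Jam2 (ENSMUSG00000053062) encodes junctional adhesion molecule 2, an immunoglobulin-type protein that binds JAM proteins of neighbouring cells at cell contacts, and it lies on the plus strand of chromosome 16, from 84774123 to 84825928 in mm10. Pecam1 (ENSMUSG00000020717; CD31), on the minus strand of chromosome 11 from 106654217 to 106750628, is an immunoglobulin-type protein that binds itself between cells and recruits phosphatases through its cytoplasmic tail. Dpp4 (ENSMUSG00000035000; CD26), on the minus strand of chromosome 2 from 62330073 to 62412231, is a membrane peptidase that removes dipeptides from the amino end of chemokines and hormones and binds adenosine deaminase. These coordinates span whole genes, and the reads were counted over their exons. In the adult, JAM2 and PECAM1 are best known from endothelium and DPP4 from epithelia and T cells, while PECAM1 is also a familiar surface marker of mESCs held in the naive state. The naive state, which resembles the inner cell mass, is kept by 2i, a pair of inhibitors of MEK and GSK3, together with LIF, and it is left when these are withdrawn.

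Xmas mESCs are female C57/Bl6 lines in which one X chromosome bears GFP and the other mCherry, each knocked into Hprt, and all libraries examined here come from such cells with no further treatment. From growth in 2i with LIF the cells were brought stepwise, within 3 days, to a medium that contains serum and no LIF and that steers them to no chosen lineage, and 1 library per culture was made on each day from day 0 to day 8. Each day has 4 libraries, 36 in all, from 4 cultures that the labels name X14 double, X14 single, X18 double and X18 single, where X14 and X18 are lines and the meaning of double and single is not stated in the labels. The day groups thus have n = 4, but each culture of a given line and label was sampled once a day, so the successive days of a culture were not independent cultures and a label or a line was represented by 2 cultures.

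Between 612740 and 2445826 reads per library lay in genes. A level is given as RPM (reads per 1000000 reads of the library) when a gene is compared with itself, and as RPKM (RPM per 1000 bases of exon) when genes are compared with each other. A count of 3 reads, taken as the floor, corresponded to 1.04 to 3.9 RPM. The day 0 libraries of X14 went against their labels in 1 respect: the difference between X-linked and autosomal genes, double minus single, was -1.14 on the log2 scale in X14 on day 0 and 0.30 to 1.05 in X14 on days 1 to 8. In X18 it was 0.25 to 1.02 on days 0 to 8. Fitted values of the members that rest on the 2 day 0 libraries of X14 are given with and without them. In bulk RNA, fewer cells with a transcript and less of it per cell cannot be told apart.

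The 3 genes were lost in different ways, Dpp4 from the first day of weaning, Jam2 from day 2 on with little left on day 4, and Pecam1 slowly and incompletely. Per exon length, Jam2 was the highest on day 0 with 37.5 ± 1.93 RPKM, Pecam1 was at 25.4 ± 11.3 RPKM and Dpp4 at 20.6 ± 2.90 RPKM (SD, n = 4), and the wide spread of Pecam1 overlapped with both of the others. On day 8 Pecam1 was the highest, with 2.04 ± 1.56 RPKM, above Dpp4 at 0.123 ± 0.0843 RPKM and Jam2 at 0.0635 ± 0.0798 RPKM, and these last levels came from 3 reads or fewer in each library.

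**Figure D1:**
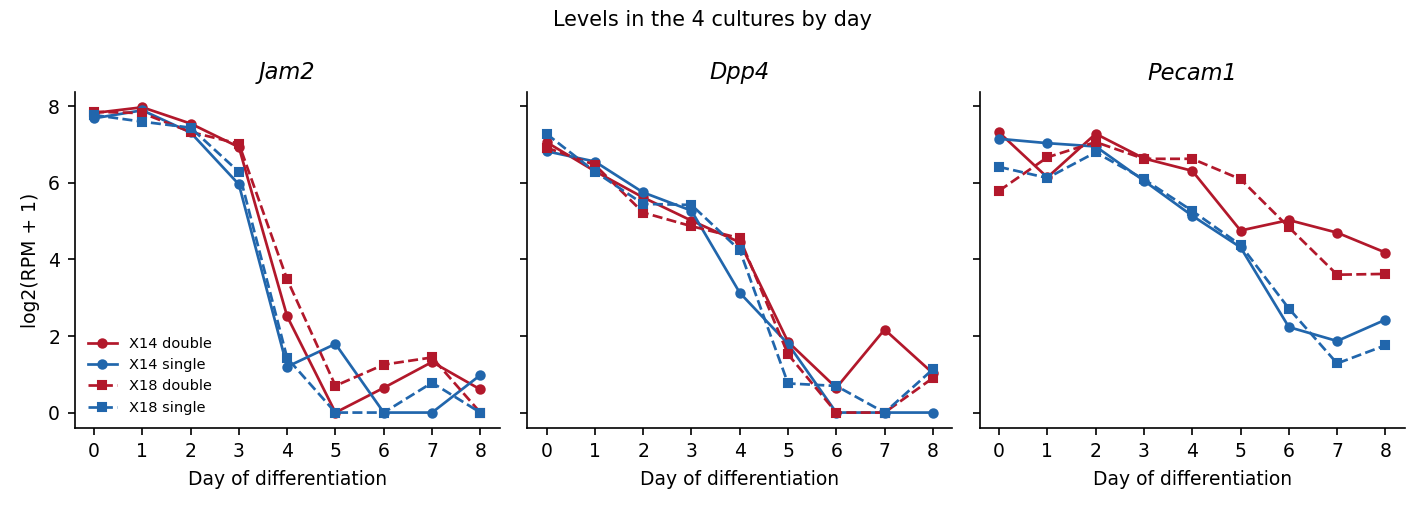
Level of Jam2, Dpp4 and Pecam1 as log2(RPM + 1) in each of the 4 cultures (1 point per library) on days 0 to 8, with red for double, blue for single, circles and solid lines for X14, squares and dashed lines for X18. Jam2 falls from 97.2 to 4.45 RPM between days 3 and 4, Dpp4 falls on every day up to day 5, and the Pecam1 curves of the labels lie apart on days 6 to 8.

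In what follows, the 4 values of a day are in the order X14 double, X14 single, X18 double, X18 single. Jam2, the junctional adhesion molecule, measured 226, 205, 231 and 218 RPM on day 0 and 251, 237, 225 and 193 RPM on day 1. These ranges overlapped, and the means of 219.96 ± 11.3 and 227 ± 24.7 RPM differed by less than 1 SD (SD, n = 4). On day 2 the values were 186, 159, 159.9 and 173 RPM, all under the lowest value of day 0. On day 3 they were 121, 61.3, 129 and 77.1 RPM, and on day 4 only 4.71, 1.29, 10.1 and 1.68 RPM, which came from 7, 2, 18 and 3 reads. In the mean of the 4 cultures, the step from day 3 to day 4 was the largest drop from one day to the next, in RPM, of the 3 genes. The ranges of these days did not overlap. Both single cultures, however, lost more RPM from day 2 to day 3 than from day 3 to day 4, while both double cultures lost more in the later step. From day 5 on every library held 3 reads or fewer. On day 8 the counts were 1, 2, 0 and 0 reads, and the levels of days 5 to 8 overlapped and could not be ordered. Pooled over the 4 libraries, day 0 was 2.33-fold above day 3 (95% interval 2.13 to 2.55), 48.0-fold above day 4 (33.4 to 71.4) and 435-fold above day 8 (148 to 2110). On the deposited log2 scale the difference from day 0 was -6.11 on day 4 and -8.09 on day 8, and -6.14 and -8.12 without the day 0 libraries of X14. The counting intervals, like all intervals on pooled reads here, cover counting error only.

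Pecam1, the homophilic adhesion protein, began with the widest spread. It measured 159, 141, 54.5 and 84.5 RPM on day 0, 69.7, 130.4, 101 and 69.0 RPM on day 1 and 155, 123, 133 and 110.3 RPM on day 2. The day 0 mean of 109.7 ± 48.6 RPM was thus indistinguishable from the day 1 mean of 92.5 ± 29.3 RPM and the day 2 mean of 130.3 ± 18.8 RPM, and no loss was seen over the first 3 days. On day 3 the values were 98.7, 65.5, 97.9 and 67.3 RPM, on day 4 they were 78.6, 34.3, 98.0 and 37.6 RPM, and on day 5 they were 26.0, 18.9, 67.5 and 19.8 RPM. On each of these days both double cultures were above both single cultures. The values went on to 31.7, 3.70, 27.6 and 5.58 RPM on day 6, to 24.99, 2.65, 11.1 and 1.43 RPM on day 7 and to 17.1, 4.37, 11.3 and 2.38 RPM on day 8. Pecam1 therefore remained above the floor in both double cultures to the end, with 33 and 13 reads on day 8, and lay near it in the single cultures, with 9 and 2 reads. Day 0 was 1.98-fold above day 4 (1.76 to 2.24), 6.46-fold above day 6 and 13.0-fold above day 8 (9.91 to 17.3), all pooled over libraries. The ranges of neighbouring days overlapped, apart from those of days 2 and 3. Without the day 0 libraries of X14, the day 4 minus day 0 difference of Pecam1 on the deposited log2 scale was -0.27 instead of -0.84, and that of day 8 was -3.34 instead of -3.91, since the 2 highest day 0 values came from X14.

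Dpp4, the peptidase, measured 133, 113, 120.2 and 155 RPM on day 0 and 78.2, 93.2, 87.8 and 77.6 RPM on day 1. The fall was thus seen after 1 day, as the lowest value of day 0 was above the highest of day 1. On day 2 it measured 48.2, 52.9, 36.4 and 42.7 RPM, again without overlap, and on day 3 it measured 31.3, 37.7, 28.2 and 41.9 RPM, a range that overlapped with day 2. Day 4 gave 20.8, 7.76, 22.5 and 17.9 RPM and day 5 gave 2.60, 2.47, 1.87 and 0.695 RPM, each below the day before in all 4 cultures. All libraries of days 5, 6 and 8 held 3 reads or fewer, and on day 7 X14 double held 7 reads while the other 3 held none. Pooled, day 0 was above day 1 by a factor with a counting interval of 1.34 to 1.69, and it was 2.77-fold above day 2, 3.62-fold above day 3, 7.34-fold above day 4 (6.03 to 9.00) and 82.8-fold above day 5 (44.8 to 173). The log2 difference from day 0 was -3.01 on day 4 and -7.28 on day 8, and -3.09 and -7.36 without the day 0 libraries of X14. The counting of reads is not stated to have used the strand, and the span of the predicted gene Gm13561, on the opposite strand of chromosome 2 from 62357071 to 62470913, overlaps that of Dpp4. Whether their exons overlap was not examined, so it is not known whether reads of Gm13561 were counted in Dpp4. A small rRNA gene, Gm25908, lies within Jam2.

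The day of loss was defined within each culture as the first day from which the level stayed under 50% of that culture's own mean over days 0 to 2. In the culture order above it was day 4, 3, 4 and 3 for Jam2 (mean 3.5 ± 0.577, SD, n = 4), day 3, 3, 2 and 2 for Dpp4 (2.5 ± 0.577) and day 5, 3, 6 and 4 for Pecam1 (4.5 ± 1.29). Jam2 and Pecam1 reached this level later in the double culture than in the single culture of the same line, by 1 day for Jam2 in both lines and by 2 days for Pecam1 in both lines, while Dpp4 did so on the same day under both labels and 1 day earlier in X18 than in X14. These gaps move with the definition. X14 single was at 49.8% of its Pecam1 start on day 3, just under the limit, and its Pecam1 day became 4 with days 0 to 3 as the start or with the libraries scaled to their 75th percentile, 1 day before X14 double. At a limit of 25% Jam2 was lost on day 4 in all 4 cultures and Pecam1 on day 5 in all but X18 double, where it was day 7. With day 0 alone as the start Dpp4 was lost on day 2 in all 4 cultures, with no difference between the lines. Under 10% of the starting mean, Jam2 was lost on day 4 in all 4 cultures and Dpp4 on day 5, 4, 5 and 5. Pecam1 passed this limit on day 6 in both single cultures and not by day 8 in either double culture. The mean day moved as well. For Dpp4 it was 2.0 with day 0 alone as the start, 3.5 with days 0 to 3 and 4.25 at a limit of 25%, and for Pecam1 it was 4.75 with days 0 to 3 and 5.5 at a limit of 25%. The order Dpp4, Jam2, Pecam1 held with day 0 alone as the start and with the libraries scaled to their 75th percentile. With days 0 to 3 as the start Dpp4 and Jam2 tied at 3.5, and at a limit of 25% Jam2, at 4.0, came before Dpp4.

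**Figure D2:**
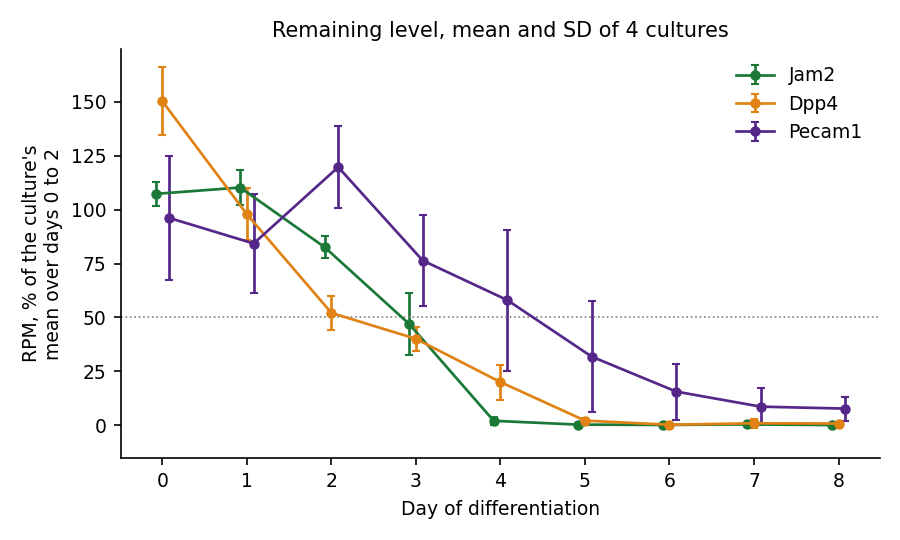
Level of each gene as a percent of the same culture's mean over days 0 to 2, by day (mean and SD of 4 cultures, with the dotted line at 50%). Dpp4 starts at 150% since it falls within the reference days, Jam2 drops from 47.0 ± 14.6% on day 3 to 2.14 ± 1.97% on day 4, and Pecam1 is still at 31.9 ± 25.8% on day 5 and 7.80 ± 5.58% on day 8.

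The labels were compared to ask whether double and single cultures keep these surface transcripts to the same extent. Pecam1 was 4.18-fold higher in double than in single cultures on days 4 to 8 (95% interval 2.97 to 5.87), a log2 difference of 2.06 ± 0.24 (SE) with an adjusted p of 4.2e-07 in limma, in a fit of all 36 libraries with day, label and line. Of the 14612 genes tested, 5.78% were called different between labels on these days (845 genes at an adjusted p under 0.05 and a log2 difference of at least 1), 3.96% higher in double and 1.83% lower, and Pecam1 stood at rank 42 by p. Pecam1 was the only one of the 3 genes called. It was higher in the double library in 10 of 10 pairs of the same line and day, with a counting interval above 1 in 9 of them. The mean level on days 4 to 8 was 39.4 RPM in double and 13.1 RPM in single, and on days 6 to 8 it was 20.6 RPM in double and 3.35 RPM in single.

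The difference was of the same size in both lines. The mean deposited log2 value over days 4 to 8 was 2.84 in X14 double, 0.84 in X14 single, 2.78 in X18 double and 0.65 in X18 single, which makes double 3.98-fold higher in X14 and 4.39-fold higher in X18. The interaction of line and label, a comparison added after the values were seen, was 0.14 on the log2 scale (95% interval -0.88 to 1.16). Treated as 2 cultures against 2, the label comparison has an exact permutation p of 0.333 (two-sided), the smallest such a design allows, so the p of the fit rests on taking the daily libraries as independent. With a correlation between the days of a culture estimated in limma (-0.0616 over all genes), the adjusted p of Pecam1 was 9.6e-09. That correlation was estimated after label and line were fitted, which take up much of the difference between the 4 cultures. This fit therefore cannot show whether the days of a culture are independent. With 1 culture per line and label, a difference that both double cultures share for another reason cannot be told apart from the label.

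On days 0 to 3 the labels did not differ detectably in Pecam1. The log2 difference was 0.11 ± 0.27 (SE; limma adjusted p = 0.913; 0.11 also without the day 0 libraries of X14), and the 95% interval of the ratio ran from 0.740 to 1.58. For this comparison 2.64% of the genes tested were called, and none of the 3 genes was among them. Pairs of libraries went both ways, as double was 0.535 times single in X14 on day 1 (counting interval 0.419 to 0.677) and 1.46 times single in X18 on the same day (1.06 to 2.03). The change in the label difference from days 0 to 3 to days 4 to 8, also a comparison added after the values were seen, was 1.95 ± 0.36 (SE) on the log2 scale (limma adjusted p = 0.0028), and 1.66% of genes were called in it. Without the day 0 libraries of X14 this change was 1.96 (adjusted p = 9.4e-04 in limma), and the difference on days 4 to 8 was 2.06 (adjusted p = 2.1e-07).

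**Figure D3:**
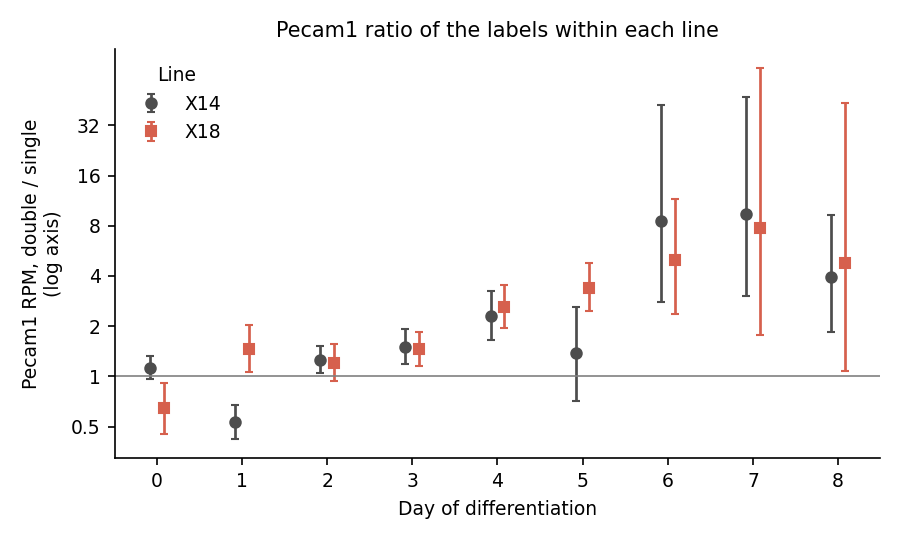
Ratio of Pecam1 RPM in the double library to that in the single library of the same line, by day, on a log axis (circles X14, squares X18, bars the 95% counting interval of each pair). Ratios lie on both sides of 1 on days 0 and 1 and above 1 in both lines from day 2 on, with a counting interval that includes 1 on day 5 in X14, where the ratio is 1.37, and on day 2 in X18, where it is 1.21.

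Naive markers moved with the label over the same days. Of the 10 naive transcription factors and markers examined, 7 were called higher in double on days 4 to 8 and 0 lower in limma (8 higher and 0 lower at an unadjusted p under 0.05), with a median log2 difference of 1.19 against -0.04 over all genes tested. Klf2, a naive pluripotency factor, was higher by 1.80 on the log2 scale, and Prdm14, a repressor of differentiation genes in naive cells, by 1.60. The day means of Prdm14 on days 4 to 8 were only 0.312 to 2.50 RPM, at or under the floor of 3 reads, so its difference rests on few reads. Summed over the 10 markers, double stood at 490 RPM and single at 155 RPM on day 4, at 654 and 406 RPM on day 6, and at 306 and 345 RPM on day 8, where Pecam1 was still higher in double. Nanog had the largest share of these sums, with day means over both labels of 130, 341 and 152 RPM. It was not called between labels on days 4 to 8 (log2 difference 0.09, limma adjusted p = 0.885). On days 0 to 3 limma called 0 of the 10 (3 at an unadjusted p under 0.05, all higher in double), and their median difference was 0.31. Their part in the label difference of Pecam1 was not tested.

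Jam2 and Dpp4 were not called between labels. On days 4 to 8 the log2 difference, double minus single, was 0.55 ± 0.32 for Jam2 (SE; limma adjusted p = 0.283; interval of the ratio 0.928 to 2.32) and 0.55 ± 0.28 for Dpp4 (limma adjusted p = 0.202; 0.988 to 2.16). Both intervals reach above a ratio of 2. Of the 20 libraries of these days, 18 held 3 reads of Jam2 or fewer and 7 held none, while 15 held 3 reads of Dpp4 or fewer and 6 held none, and a count of 0 enters the fit as the 0.9 read written for it. For Jam2 the 2 lines went apart on these days, with a fold of 0.975 in X14 and 2.21 in X18, a difference that did not pass the added test of the interaction (adjusted p = 0.999 in limma). On days 0 to 3 the difference was 0.30 ± 0.36 for Jam2 (limma adjusted p = 0.766) and -0.18 ± 0.31 for Dpp4 (limma adjusted p = 0.861). Without the day 0 libraries of X14 these became 0.32 and -0.23.

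The labels of Jam2 did separate on the days of its fall. On day 3 double was 1.98 times single in X14 (counting interval 1.57 to 2.50) and 1.67 times in X18 (1.36 to 2.07), and on day 4 the ratios were 3.64 (0.692 to 35.9) and 6.03 (1.76 to 31.9). Over days 0 to 2, in contrast, no pair of libraries had a counting interval apart from 1. Days 3 and 4 were picked out after the values were seen, so this is a description of 4 pairs of libraries and not a test. The summed naive markers differed on the same day, with 2474 RPM in double and 1325 RPM in single on day 3. Nanog had the largest share of this sum, with a mean of 868 RPM over both labels. The part of the naive markers in the Jam2 values was not tested. Dpp4 showed no such order, as double was higher in 2 of 8 pairs on days 0 to 3, with a counting interval below 1 in 2 of the 8 and above 1 in 0, and in 7 of 10 pairs on days 4 to 8, with an interval above 1 in 1 and below 1 in 0. Over days 3 and 4, 1 of the 4 intervals lay above 1 and 1 below.

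**Figure D4:**
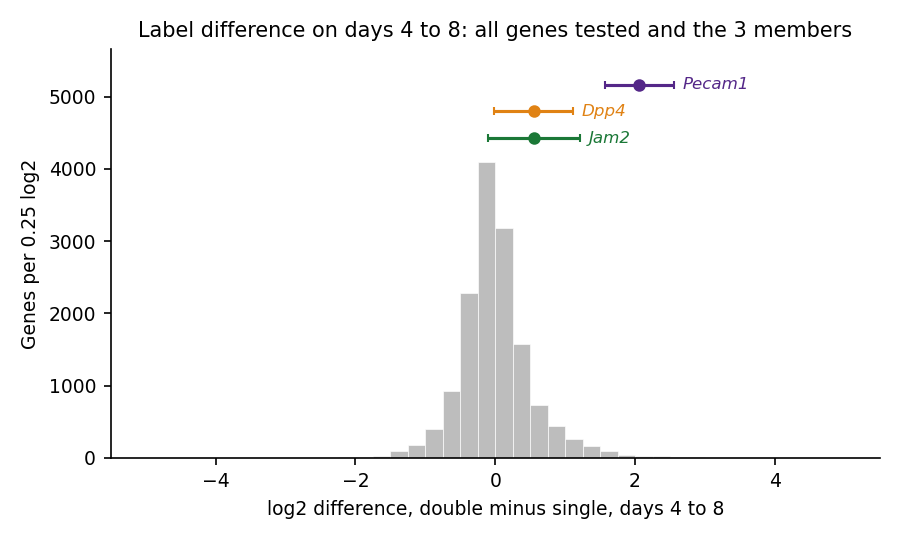
Number of genes tested by their log2 difference between labels on days 4 to 8 (grey bars, 0.25 log2 wide), with Jam2, Dpp4 and Pecam1 marked above at their fitted difference and 95% interval. Pecam1 at 2.06 lies in the upper tail of the distribution, while the intervals of Jam2 and Dpp4 at 0.55 include 0.

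The lines were compared to ask whether both lines lose these transcripts alike. None of the 3 genes was called between X18 and X14 in limma in either period, and only 0.0137% of the genes tested were (2 genes, against 3952 at an unadjusted p under 0.05 on days 0 to 3 and 784 on days 4 to 8). On days 0 to 3 the log2 difference, X18 minus X14, was -0.0010 for Jam2 (interval of the ratio 0.599 to 1.67), -0.062 for Dpp4 (0.618 to 1.49) and -0.38 for Pecam1 (0.526 to 1.13). Without the day 0 libraries of X14 these were -0.021 for Jam2, -0.13 for Dpp4 and -0.12 for Pecam1, day 0 being the day on which X14 held 159 and 141 RPM and X18 held 54.5 and 84.5 RPM. On days 4 to 8 the differences, X18 minus X14, were -0.13 for Jam2 (0.577 to 1.44), -0.30 for Dpp4 (0.55 to 1.2) and -0.12 for Pecam1 (0.652 to 1.29). The interaction of line and label on days 0 to 3 called 0 genes in limma (390 at an unadjusted p under 0.05), and it was -0.12 for Jam2, -0.14 for Dpp4 and 0.13 for Pecam1. Without the day 0 libraries of X14 the interaction was -0.20 for Jam2, -0.029 for Dpp4 and 0.17 for Pecam1.

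The loss of the 3 genes was set beside lists of related genes, on day 8 against day 0. Over all genes tested 35.0% were called on day 8, 23.9% higher and 11.1% lower, with a median log2 difference of 0.23. The split depends on the scaling: 68.1% of the calls were higher with the values as deposited, 57.6% with libraries scaled to their 75th percentile, where the median was 0.02, and 50.4% after quantile normalization, where it was -0.09. Of 58 listed genes called, 57 and 49 were still called under these scalings, and none changed direction.

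Most tight junction genes rose while Jam2 fell. Of 17 genes tested of 20 in the list of the JAM family and tight junction, 13 were called higher, 1 lower and 3 neither, with a median of 2.07. Cldn6 and Cldn7, claudins that seal epithelial contacts, rose by 5.97 and 5.001 on the log2 scale, from 5.27 to 276 RPM and from 5.15 to 145 RPM. The JAM family itself was split, since F11r, which encodes JAM-A, rose from 60.4 ± 17.8 to 158 ± 18.3 RPM while Jam3, which encodes the JAM2 partner JAM-C, fell from 37.2 ± 17.9 to 14.6 ± 11.5 RPM (log2 difference -1.62), and it was the 1 gene of the list called lower. On day 4, 10 of the 17 were already called higher and 0 lower in limma (12 higher and 0 lower at an unadjusted p under 0.05), in a comparison that called 18.6% of all genes tested, 12.2% higher and 6.40% lower. The 10 became 3 without X18 double and 4 without X18 single.

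The relatives and partners of PECAM1 moved both ways. Of 14 tested of 16 in the list of PECAM1 partners and other immunoglobulin adhesion molecules, 6 were called higher, 4 lower and 4 neither (median 0.87). Without the day 0 libraries of X14 these were 4 higher and 2 lower. Cd38, an ectoenzyme reported to bind PECAM1, fell by 3.54 on the log2 scale, from 24.7 ± 3.59 to 2.11 ± 1.66 RPM, and Icam1, an adhesion molecule bound by leukocyte integrins, fell from 123 ± 16.5 to 20.3 ± 5.56 RPM (log2 difference -2.63). Nectin2 (Pvrl2 in the table), a nectin of adherens junctions, rose from 87.1 to 291 RPM and Ptpn11, which encodes the phosphatase SHP2 that PECAM1 recruits, from 61.1 to 185 RPM, log2 differences of 1.80 and 1.75.

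Among DPP4 relatives, other ectopeptidases and DPP4 partners, 13 of 16 were tested and 5 were called higher, 1 lower and 7 neither (median 0.57), with 7 higher and 1 lower when the day 0 libraries of X14 were left out. Dpp3, an intracellular peptidase of the list, was at 195 ± 42.4 RPM on day 0 and 190.4 ± 38.4 RPM on day 8, and the DPP4 relative Dpp8 rose from 21.7 to 50.4 RPM. Cxcl12, a chemokine that DPP4 cleaves, rose by 3.94 on the log2 scale from 0.445 to 14.2 RPM, and the aminopeptidase Anpep by 2.55, from 2.65 to 11.5 RPM. The membrane peptidase Mme (CD10) was the 1 gene called lower, with 82.2 ± 19.3 RPM at the start, 9.95 ± 6.74 RPM on day 4 and 27.5 ± 7.13 RPM at the end. Its course was not a steady fall, since on days 5, 6 and 7 it was at 66.1, 97.9 and 74.8 RPM.

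Other surface markers linked to the naive state were not lost as a group by day 8. Of 11 tested, 5 were called higher, 3 lower and 3 neither (median 0.13). On day 4, 3 were called higher and 4 lower, with a median of -0.75 against 0.12 over all genes tested. In that comparison 12.2% of all genes tested were called higher and 6.40% lower. Cd9, called lower on day 4, was at 669 RPM on day 0, 122 RPM on day 4 and 466 RPM on day 8, where it was not called. Fut9, the enzyme that makes the SSEA-1 epitope, fell by 4.44 on the log2 scale from 26.4 to 1.43 RPM and the receptor Kit by 3.53 from 209 to 18.9 RPM, while Epcam rose from 70.2 to 402 RPM and Bst2 from 39.9 to 208 RPM. Of the surface markers of primed or differentiated cells 8 of 9 were tested, with 5 called higher, 0 lower in limma (0 also at an unadjusted p under 0.05) and 3 neither (median 1.83). Cd24a rose by 2.30 and Itga5 by 1.92 on the log2 scale.

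**Figure D5:**
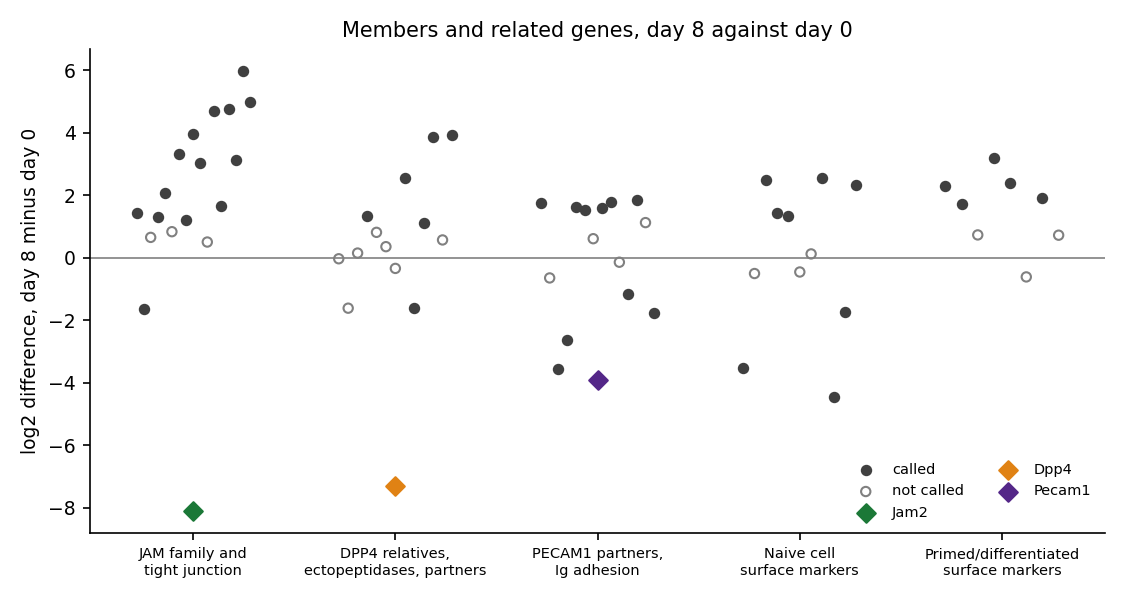
Difference on the log2 scale, day 8 minus day 0, of the genes tested in 5 lists (filled circles called, open circles not called; 1 point per gene), with Jam2, Dpp4 and Pecam1 as diamonds above the list of their relatives or partners. The diamonds at -8.09, -7.28 and -3.91 lie below every gene of their own lists, and most genes of the tight junction list lie above 0.

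Cell types in which these proteins are better known were checked by their markers. Of the 13 endothelial markers 9 passed the filter, and Cdh5, Kdr, Emcn and Erg did not, with 18, 2, 0 and 1 reads over all 36 libraries. The highest on day 0 were Eng at 35.2, Egfl7 at 34.2, Vwf at 17.2 and Tek at 10.4 RPM. The 13 markers together measured 49.3 to 153 RPM per library on day 0 and 101 to 148 RPM on day 8, led on day 8 by Flt1, which rose from 0 to 77.3 RPM. The reads of Cdh5 came late, with a mean of 2.35 RPM on day 8 and 11 of its 18 reads in 1 library, and Tie1 was at 2.73 RPM on that day. Of the 9 tested, 1 was called higher on day 8, Flt1, and 3 were called lower, Eng, Vwf and Tek. On days 4 to 8, 2 were called higher in double, Tie1 by 1.44 and Vwf by 1.72 on the log2 scale. Their day means on these days were 0 to 2.73 RPM for Tie1 and 0.996 to 4.20 RPM for Vwf. Both lay near or under the floor of 3 reads, so these differences rest on few reads. Among 7 blood cell markers 2 were tested and the defining Ptprc held 0 reads in all libraries, although Cd3e, which marks T cells, stood at 6.49 ± 2.43 RPM on day 0 and held 0 reads on day 8. Visceral endoderm markers summed to no more than 4.11 RPM in any library, and 1 of 5 was tested and not called. The naive markers, in contrast, were all called lower on day 8 (10 of 10, median -3.18) and on day 4, in the interval in which Jam2 fell.

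The genes whose course was most like that of each member were found by Pearson's correlation of the deposited log2 values over the 36 libraries, among 8786 genes with at least 10 RPM on day 0. Since the libraries share the days and the depth, r is a description. Jam2 was most like Echdc2 (r = 0.974), Obox6 (0.972), Myo1f (0.970), Gm7325 (0.969) and Nr0b1 (0.968). The value of r does not depend on the size of a fall. Echdc2 measured 80.8, 33.8 and 20.8 RPM on days 0, 4 and 8, a much smaller fall than that of Jam2, with means of 219.96, 4.45 and 0.373 RPM. Dpp4 was most like Nr0b1 (r = 0.971), Accsl (0.964), H2-M5 (0.964), Fez1 (0.946) and Obox6 (0.943). Nr0b1, a nuclear receptor of the naive network, and the homeobox gene Obox6 were thus near both, and Nr0b1 measured 114 RPM at the start, 10.4 RPM on day 4 and 0.477 RPM at the end. Pecam1 was most like a set that shares no gene with these: Inpp5d (r = 0.976), the inositol phosphatase SHIP1, then Gm949 (0.963), Pde8a (0.947), Laptm5 (0.943) and Rpl10l (0.935). All 5 were higher in double on days 4 to 8, by 2.08 to 2.48 on the log2 scale, a pattern that entered the correlation by which they were found. Between the members r was 0.937 for Jam2 and Dpp4, 0.830 for Dpp4 and Pecam1 and 0.769 for Jam2 and Pecam1.

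Dpp4 has an entry in the promoter table used here (RefSeq, GRCm38.p6), and the 250 bases before its start are shown because it was the first of the 3 genes to fall. They lie at chr2:62412232-62412481 and are read on the minus strand, with capitals at the motifs found.

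Dpp4 promoter: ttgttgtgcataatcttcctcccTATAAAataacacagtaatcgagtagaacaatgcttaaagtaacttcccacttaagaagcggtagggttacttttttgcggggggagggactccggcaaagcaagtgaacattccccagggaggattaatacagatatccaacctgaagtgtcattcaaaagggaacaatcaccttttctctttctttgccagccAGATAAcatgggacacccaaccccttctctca

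The letters TATAAA, known as the core promoter element that TBP binds, were found 227 bases before the start, and AGATAA, which factors of the GATA family bind, 32 bases before it. Of 32851 promoter windows of the same length, 12.4% hold TATAAA and 9.99% AGATAA on either strand. The octamer ATGCAAAT of POU5F1 was searched on both strands and had no match in this window, beside 1.60% of all windows that hold it. The same held for the ESRRB motif TCAAGGTCA, which 0.387% of windows hold, for the STAT motif TTCNNNGAA (7.02%), for the motif CCACCC of KLF factors (28.1%) and for the motif CTTTGT of TCF factors (16.5%). A match is a run of letters and was not tested as a site.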

How the data were processed

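RNA-seq was examined for 36 libraries of total RNA, 4 on each of 9 days. Per the labels and the methods of the study, single-end reads were aligned to mm10 (TopHat2 2.0.12 is listed among the tools, beside bcl2fastq) and quantified per gene in SeqMonk. The annotation version and the use of strand are not given in the sources used here. The authors deposited log2 values per gene and library. The smallest values of a library are spaced between genes as their exon lengths are, so the unit was taken as log2 RPKM, with 0 reads written as 0.9 read. By this rule 100% of values resolved to whole reads (tolerance 0.05 read), which gave reads, RPM and floors. Each of the 36 value columns belonged to a library and 0 remained. No libraries of a day agreed within sampling noise (chi-square per gene at least 1.23).

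Genes with at least 1 RPM in at least 4 libraries (14612) were tested with limma 3.58.1 in R 4.3.3 (lmFit, eBayes with trend) on the deposited log2 values, with Benjamini-Hochberg adjustment over all of them, and called at an adjusted p under 0.05 and a log2 difference of at least 1. Label and line were fitted as terms nested in days 0 to 3 and days 4 to 8, with day as a factor. The related gene lists were tested with day as the only factor. The fit was tested on simulated reads drawn independently for each library, so that check cannot speak to dependence between the days of a culture. The replicate number stands for the same line and label on every day, which pairs the days. Same-numbered libraries of days 4 and 8 deviated together (r over genes 0.120 to 0.194), those of days 0 and 4 did not throughout (-0.168 to 0.186). Pooled ratios have exact 95% intervals for counting error, and the reads carry no molecular identifiers.

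The named genes are the 3 members, the 5 genes most correlated with each (at least 10 RPM on day 0), and in each list the called genes with the 2 largest rises and falls on day 8 with at least 10 RPM on the higher day. F11r, Dpp3, Dpp8 and Cd9 were picked out of their lists after their values were seen, as were Ptprc, Cd3e and the endothelial, blood and naive markers given by name. Members and lists were chosen with earlier results of these data known.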

Additional observations from a re-analysis of the deposited data

Results flagged for a closer look

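Pecam1 on day 5 stood at 67.5 RPM in X18 double, against 18.9 to 26.0 RPM in the other 3 libraries, a gap large for a group of 4. Dpp4 on day 7 stood at 3.50 RPM (7 reads) in X14 double, where the other 3 libraries held 0 reads. These were 2 of 27 sets of 4 libraries, 1 for each gene and day, and chance alone picks out about 1 in 20 sets of continuous values. A set with reads in only 1 library, like that of Dpp4 on day 7, is picked out whatever the value, so that rate does not apply to it.

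The label difference of Pecam1 differed between the periods, with a change of 1.95 on the log2 scale from days 0 to 3 to days 4 to 8 (adjusted p = 0.0028 in limma, double higher in 6 of 8 pairs of libraries in the first period and in 10 of 10 in the second).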

How the results depend on the processing

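Pecam1 on days 4 to 8 was higher in double and called under every alternative run that kept all 4 cultures. Its log2 difference was 1.66 with voom, 1.84 with log2(RPM + 1) and 2.30 without day 5, against 2.06 in the main fit. With 1 culture left out, the label was estimated from the other line alone, 1 double against 1 single culture. That log2 difference was 1.99 in X14 and 2.13 in X18. Jam2 and Dpp4 were called under no alternative run. Leaving out 1 culture moved Jam2 between -0.036 and 1.14, the lower value being that of X14 alone. The number of genes called between labels on days 4 to 8 fell from 845 to 351 with a mean of at least 10 RPM required and to 263 to 344 without 1 culture, and it was 2037 with no minimum fold. On days 0 to 3 it was 683 with no minimum fold, 219 with at least 10 RPM, 1132 without day 0, 1246 without the day 0 libraries of X14, 594 with a correlation within cultures (a choice made after seeing the data) and 0 to 669 without 1 culture, where X14 alone gave 0 (584 and 583 genes at an unadjusted p under 0.05 in limma).

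The line differences of the members lay near 0 and their signs were not stable. On days 0 to 3 they became 0.089 for Jam2 and 0.028 for Dpp4 with scaling to the 75th percentile and 0.020 for Dpp4 with quantile normalization, and leaving out 1 culture gave -0.063 to 0.061 for Jam2 and -0.13 to 0.0099 for Dpp4. On days 4 to 8 log2(RPM + 1) gave 0.0017 for Jam2, voom 0.028 for Dpp4 and 0.12 for Pecam1, and leaving out 1 culture -0.72 to 0.46 for Jam2. Line calls, 2 in each period, became 4 with quantile normalization, 295 with no filter, 1 with at least 10 RPM, log2(RPM + 1), voom or without day 0, 221 with the correlation and 0 to 122 without 1 culture on days 0 to 3, and 1 with at least 10 RPM, 5 with voom, 19 with the correlation and 0 to 2 without 1 culture on days 4 to 8. The interaction of line and label for Dpp4 was 0.0098 without day 0.

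Day 4 calls numbered 1728 and day 8 calls 3222 with at least 10 RPM. Day 4 calls numbered 4355 without the day 0 libraries of X14 and 1656 to 3828 without 1 culture. On day 4, 65.6% of calls were higher as deposited and 54.5% after quantile normalization. Without X18 double 3 of the 17 tight junction genes were called higher on day 4, and without X18 single 4. With quantile normalization 3 DPP4 relatives and 2 PECAM1 partners were called higher on day 8. With the replicate number as a block 2926 genes were called on day 4 and 5267 on day 8, and the list counts changed in 1 case, 2 DPP4 relatives lower in place of 1. The Dpp4 difference on day 8 was -6.26 on the log2(RPM + 1) scale, and its day of loss 3.5 or 4.25 under the other definitions. The causes of these changes were not tested. Depth limits Jam2 and Dpp4 from day 5 on, where nearly all libraries hold 3 reads or fewer.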
